A study of Mus musculus with 9 samples.

Results

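The UP class comprises the oligonucleotide probes that the array maker named ASMM10UP followed by a number. All 923 non-control probes with such a name were taken, out of 60915 non-control probes on the array, and they carry every number from 1 to 923. Liver RNA had been hybridised to 9 arrays, 1 per sample, in 3 groups of 3. Fetal liver came from mouse embryos at day 17.5, adult liver from males aged 2 months, for which no treatment is named, and liver cancer from males aged 1 year after tumour induction by DEN, which is diethylnitrosamine, a carcinogen activated in the liver. No genotype or strain is given for any group, the sex of the embryos is not stated, and adult liver and liver cancer differ at once in age, DEN and tumour tissue. Replicates are described as independent samples without naming animals, so p-values refer only to these samples. The spread that each p-value uses is shared by the 3 groups.

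An oligonucleotide array reads RNA through short DNA probes fixed to glass. The brightness of a spot follows the amount of labelled RNA that its probe binds, which depends on the abundance of the target RNA and on the probe's sequence. Arrays of this kind cover protein-coding RNAs and long non-coding RNAs, which are transcripts without a known protein product and are often restricted to a tissue or stage. Fetal liver is a blood-forming organ as well as an early hepatic tissue, the adult organ carries metabolism and secretion, and transcripts shared by fetal liver and tumour are called oncofetal. What the letters UP stand for, which transcripts the probes bind and what their sequences are is not stated in any source used here. The probes are therefore described by name and signal alone, and no role is assigned to any of them. For the same reason markers of hepatocytes or other liver cells were not analysed here, and in bulk tissue fewer cells of a type and less RNA per cell cannot be told apart.

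Each UP probe had 1 spot per array, so no probe was measured more than once on an array. The spots lay across 343 of the 384 rows and all 164 columns of the grid, and none was saturated. Of the 8307 spot values, 19 were marked as outliers and left out, and they belonged to 7 probes. For UP spots well above background, the error that the scanner software gave was 10.8% to 11.7% of the signal in the median, depending on the array.

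Most UP probes gave little signal in any liver sample. On the fetal arrays 193, 267 and 199 of the 923 probes were marked well above background by the scanner software, or 20.9%, 28.9% and 21.6%. On the adult arrays the numbers were 160, 164 and 160, or 17.3% to 17.8%. Liver cancer replicate 1 had 159 (17.2%), whereas replicates 2 and 3 had 373 (40.4%) and 355 (38.5%). Replicate 1 thus lay with the adult arrays, and replicates 2 and 3 lay far above every other array. These 2 liver cancer arrays also differ from the other 7 in having been scanned in a second session, per the file headers. On them 7% and 3.33% of the 300 negative control spots were well above background, against at most 1% on the first-scan arrays. Checks of scan are given below: a fit on the first-scan arrays and a fit of all 9 arrays with scan as a block. In the former liver cancer is 1 array, assumed to vary like the other groups, and in the latter its difference from the other groups rests on that same array.

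The other 58141 ASMM10 probes were well above background more often on every array. Their share was 42.8% to 56.3% on the fetal and adult arrays, 45.0% on liver cancer replicate 1, and 70.6% and 69.3% on replicates 2 and 3. This is 1.75 to 2.61 times the share of the UP probes on the same array, with the lowest ratio on liver cancer replicate 2 and the highest on replicate 1. No test was run on this difference, since probes are not replicates. The median UP spot measured 4.05 to 5.52 units of processed signal on the 7 first-scan arrays, where the median negative control spot measured 3.86 to 5.24. On liver cancer replicates 2 and 3 the median UP spot measured 12.4 and 9.91, against 4.25 and 4.55 for the negative controls.

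Across the 9 arrays, 472 UP probes (51.1%) were never well above background, against 23.1% of the other ASMM10 probes. At the other end, 119 UP probes (12.9%) were well above background on all 9 arrays, against 35.9%. A further 155 UP probes (16.8%) were well above background only on liver cancer replicates 2 or 3, which is close to the 16.1% of the other ASMM10 probes with that pattern. The middle ground was thin in both classes: 1.63% to 5.42% of UP probes were above background on any given number of arrays from 3 to 8.

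Levels were kept for the 259 UP probes (28.1%) that reached a well-above-background mark on 3 or more arrays. The same requirement kept 58.2% of the other ASMM10 probes. Within the first scan alone, 201 UP probes (21.8%) reached 3 arrays. Of the 50 probes that were above background on exactly 3 arrays, 39 had both second-scan arrays among the 3. Of the 92 on exactly 2 arrays, which were left out, 82 had just those 2. The highest level of a probe ranged from -2.88 to 0.52 for the former and from -3.75 to 0.00 for the latter. Levels are log2 processed signals minus the 75th percentile of the array, so 0 marks the 75th percentile. The probe numbers showed no block without signal: of each 100 consecutive numbers, 22 to 34 probes were kept, and of the last 23 numbers 11 were kept.

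Of the 259 kept probes 256 could be tested, because the other 3 lacked usable spots. These 3, ASMM10UP491, ASMM10UP573 and ASMM10UP894, were bright and well above background on all 9 arrays, but each had spots marked as outliers on at least 4 arrays. ASMM10UP573 stood at 5.23 on fetal replicate 2, at 5.24 and 5.19 on adult replicates 2 and 3, and at 6.50 and 6.57 on liver cancer replicates 2 and 3. ASMM10UP491 stood at 5.44 and 5.62 on fetal replicates 1 and 2 and at 6.58 and 6.48 on liver cancer replicates 2 and 3, with no usable adult array. ASMM10UP894 stood at 6.02, 5.92, 5.84 and 5.54 on fetal replicate 2, adult replicate 2 and liver cancer replicates 2 and 3. They were not tested, since each had fewer than 2 usable arrays in at least 1 group.

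Among the 256 tested probes the group means of fetal liver had a median of -1.45 and ran from -5.14 to 7.80. In adult liver the median was -1.48 and in liver cancer -1.40, against -0.44, -0.44 and -0.47 for the other tested ASMM10 probes. Brightness also depends on a probe's sequence, so these levels do not order transcripts. The median SD over these probes was 0.22 log2 for the fetal arrays, 0.27 for the adult arrays and 0.55 for the liver cancer arrays (n = 3 each).

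A single test over the 3 group means, fitted with limma on all 34114 tested probes, called 128 of the 256 UP probes as different. A call required a Benjamini-Hochberg adjusted p below 0.05 and a range of group means of at least 1 log2. The share was 50%, beside 54.7% of all tested probes. The highest group mean was that of fetal liver for 68 of them, liver cancer for 35 and adult liver for 25. These are 26.6%, 13.7% and 9.77% of the tested UP probes, beside 23.9%, 16% and 14.8% of all tested probes. Fetal liver thus was the most frequent highest group in the UP class and over the whole array, and no test was run on the difference between them.

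The first comparison asked which UP signals separate the embryonic from the adult organ. Here 87 of 256 UP probes were called (34.0%), 54 higher and 33 lower in fetal liver. The threshold was a limma adjusted p below 0.05 with at least a 2-fold change, and it called 39.5% of all tested probes, 21.2% higher and 18.4% lower. The UP share was close to this background for higher probes (21.1%) and below it for lower ones (12.9%), which was not tested. Groups did not overlap on 154 UP probes (60.2%), beside 66.1% of all tested probes. A change of 4-fold or more was seen for 29 higher and 13 lower UP probes, together 16.4% of those tested, beside 19.2% of all tested probes. The median log2 difference was 0.09 over the UP probes and -0.02 over all tested probes.

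Among the probes called higher in fetal liver was ASMM10UP342. It stood at 2.55, 2.54 and 2.88 on the fetal arrays and at -4.08, -2.78 and -1.97 on the adult arrays, of which only replicate 3 was well above background. Fetal levels thus lay apart from adult levels by more than 4 log2 units. The difference was 5.60 ± 0.51 (SE, n = 3 per group), or 48.5-fold (limma adjusted p = 1.94e-05), and 2.50 with normexp background correction, which adds an offset and shrinks changes of dim probes. In liver cancer this probe stood at -2.85, -1.85 and -1.62, not called against adult liver.

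ASMM10UP165 and ASMM10UP906 were also higher in fetal liver, and neither was well above background on any adult array. The levels of ASMM10UP165 were 1.08, 0.88 and -0.12 in fetal liver and -3.29, -4.28 and -4.31 in adult liver. From the lowest signal that was well above background on each adult array, ASMM10UP165 was at least 7.11-fold higher in fetal liver (limma adjusted p = 0.000955). A bound of this kind sets the mean of the brighter group against that floor, or against the dim probe's own signal where it was higher. It is strict only where every array of the brighter group was well above background. ASMM10UP906, at -0.44, -0.15 and -0.58 on the fetal arrays, was at least 3.54-fold higher (limma adjusted p = 0.000312). With normexp its difference was 0.81, without a call.

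ASMM10UP092 was well above background on all 3 fetal arrays and on none of the other 6. Its levels were 0.25, -0.03 and 0.17 in fetal liver, -3.17, -4.41 and -4.40 in adult liver and -4.61, -4.67 and -4.57 in liver cancer. It was at least 5.08-fold higher than in adult liver (limma adjusted p = 7.3e-06) and at least 12.9-fold higher than in liver cancer (limma adjusted p = 3.14e-06). Both calls held with normexp, at 1.03 and -2.09, and the latter on first-scan arrays, at -4.74. In all, 6 UP probes had this fetal pattern (0.65%, against 0.84% of the other ASMM10 probes). They passed the filter only through the fetal arrays, so the pattern itself set the direction of their differences. Their p-values and bounds are therefore no independent support for that direction.

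The next brightest of these 6 were ASMM10UP623 and ASMM10UP467. ASMM10UP623 lay at -0.52, -0.68 and -0.55 on the fetal arrays and was at least 3.10-fold higher than in adult liver (limma adjusted p = 0.00396) and at least 7.84-fold higher than in liver cancer. ASMM10UP467 lay at -1.08, -1.17 and -1.17 and was at least 2.11-fold and at least 5.33-fold higher, respectively. With normexp their differences from adult liver were 0.61 and 0.57, without a call, and that of ASMM10UP467 also lost its call with signals raised to the floor (1.08), while those from liver cancer remained called at -1.82 and -1.59, and at -2.75 and -3.32 on first-scan arrays.

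In the opposite direction ASMM10UP755 had the largest fall among called UP probes above background on all 6 fetal and adult arrays. It stood at 4.73, 4.41 and 3.94 in adult liver and at -0.96, -1.58 and -0.91 in fetal liver, and at 0.24 and 0.73 on liver cancer replicates 1 and 2, with replicate 3 the highest of that group. The 3 groups did not overlap. Fetal liver lay 45.6-fold below adult liver (-5.51 ± 0.31, limma adjusted p = 9.46e-07), and liver cancer 12.7-fold below it (-3.67 ± 0.31, limma adjusted p = 4.98e-05). Liver cancer lay 3.58-fold above fetal liver (1.84 ± 0.31, limma adjusted p = 0.000946). On first-scan arrays the 2 liver cancer differences were -4.12 and 1.39, both called, and with normexp they were -2.98 and 1.07.

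ASMM10UP265 and ASMM10UP120 were well above background on no fetal array. ASMM10UP265 stood at 0.30, 0.00 and 0.19 in adult liver and was at least 8.01-fold lower in fetal liver (limma adjusted p = 8.14e-05). In liver cancer it was at -4.63 on replicate 1, below background, and at -2.16 and -2.07 on replicates 2 and 3. Its difference from adult liver was -3.11 ± 0.60, and -4.79 within the first scan. ASMM10UP120 varied in adult liver, at 0.52, -0.37 and -1.98 with replicate 3 below background. Its adult mean lay 4.70-fold above the fetal floor, which is no strict bound, since that mean includes replicate 3. With normexp its difference was -0.77, without a call.

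ASMM10UP100 was also called lower in fetal liver, at -4.25, -3.02 and -4.66 there, with only replicate 2 well above background, and at -0.79, -1.15 and -0.71 in adult liver. The difference of -3.09 ± 0.72 (limma adjusted p = 0.00631) was -0.52 with normexp, without a call. Its liver cancer levels of -0.86, 2.15 and -0.36 varied by about 3 log2 units between arrays, and against adult liver it was not called.

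Across the called UP probes, dim signal in the lower group was frequent. Of the 54 called higher in fetal liver, 27 were well above background on no adult array. For 22 of these a lower bound could be given, and it reached 2-fold for 11. Of the 33 called lower, 9 were well above background on no fetal array, and 1 of these was not above it on any adult array either. These counts were made for UP probes alone, so they do not show a trait particular to the class. The count fell from 87 to 27 with normexp (10.5%, beside 17.4% of all tested probes), and to 63 when signals were raised to the floor (24.6%, beside 32.8%). Counting whole detection patterns, 30 UP probes were well above background on all 3 fetal and no adult arrays (3.25%, against 5.20% of the other ASMM10 probes). The reverse pattern was seen for 3 UP probes (0.33%, against 1.097% of the other ASMM10 probes). Of the 30 probes 24 were called higher in fetal liver, but the pattern by which they were chosen had already set that direction. The number of calls is thus no independent support for it. The largest bound in this direction was that of ASMM10UP735, named after its values were seen, at 1.07, 1.02 and 1.41 in fetal liver and -1.97, -2.37 and -2.18 in adult liver, or at least 9.99-fold.

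Where all 9 arrays were well above background, levels rest on measured signal throughout. Of the 116 such tested UP probes, 38 differed by call between fetal and adult liver (32.8%, against 36.2% of the other ASMM10 probes with that detection). Liver cancer differed by call from adult liver on 26 (22.4%, against 22.1%) and from fetal liver on 42 (36.2%, against 39.3%). With 3 to 5 arrays above background the UP shares were 35.5%, 18.3% and 47.3%, against 43.4%, 23.3% and 46.9%. Several of the bright probes, given here after their values were seen unless the naming rule chose them, were highest in fetal liver and lowest in liver cancer.

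ASMM10UP087 stood at 4.35, 4.43 and 4.40 in fetal liver, 1.89, 2.00 and 2.12 in adult liver and -1.71, -1.70 and -1.71 in liver cancer. Its 3 groups lay far apart, and the liver cancer arrays of both scans agree to within 0.01 log2. It was 5.25-fold higher in fetal than in adult liver (2.39 ± 0.17, limma adjusted p = 3.52e-06) and in liver cancer it lay 13.1-fold under its adult level (-3.71 ± 0.17, limma adjusted p = 2.55e-06). Directly against fetal liver the tumour level was lower by 68.7-fold (-6.10 ± 0.17, limma adjusted p = 6.18e-08), the largest difference of any tested UP probe in that comparison. With normexp the 3 values were 2.08, -2.43 and -4.50.

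ASMM10UP847 and ASMM10UP848 carry consecutive numbers and behaved alike, and whether they bind 1 transcript is not known here. ASMM10UP848 stood at 5.78, 5.48 and 5.69 in fetal liver, 2.87, 2.77 and 2.75 in adult liver and 0.80, 0.11 and 0.05 in liver cancer. ASMM10UP847 stood at 5.08, 5.09 and 5.38, at 2.28, 2.30 and 2.25, and at 0.36, -0.22 and -0.12. For both probes the 3 groups were apart, with liver cancer replicate 1 the highest of its group. Fetal liver exceeded adult liver 7.24-fold and 7.50-fold (2.86 ± 0.24 and 2.91 ± 0.21), and liver cancer lay below adult liver 5.58-fold and 4.83-fold (-2.48 ± 0.24 and -2.27 ± 0.21). On first-scan arrays, with 1 liver cancer array, both falls were called by limma, and that of ASMM10UP847 was -1.92.

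The same order was seen for ASMM10UP607 and ASMM10UP240. ASMM10UP607 stood at 3.82, 3.72 and 3.92 in fetal liver, 1.43, 1.58 and 1.49 in adult liver and 0.05, -1.27 and -0.91 in liver cancer. ASMM10UP240 stood at 2.91, 2.60 and 2.59, at 0.50, 0.36 and 0.54, and at -1.26, -1.54 and -1.50. Both were called in all 3 comparisons, and with normexp and within the first scan they were called as well. Their differences between liver cancer and adult liver were -2.21 ± 0.31 and -1.90 ± 0.19, and -1.45 and -1.72 within the first scan.

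ASMM10UP450, ASMM10UP034 and ASMM10UP482 were higher in fetal liver, without a call between liver cancer and adult liver. ASMM10UP450 was at 7.90, 7.65 and 7.86 in fetal liver, 4.57, 4.56 and 4.41 in adult liver and 4.52, 3.20 and 3.39 in liver cancer, so that liver cancer replicate 1 lay among the adult arrays. Fetal liver exceeded adult liver 9.77-fold (3.29 ± 0.32). ASMM10UP034 exceeded adult liver by 3.81 ± 0.28 and ASMM10UP482 by 2.53 ± 0.17. The fetal, adult and tumour means were 3.36, -0.45 and -0.69 for the former and 5.20, 2.67 and 2.18 for the latter.

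Other bright probes were highest in adult liver. ASMM10UP601 stood at 6.68, 6.61 and 6.62 there, at 4.32, 4.14 and 4.47 in fetal liver and at 5.54, 4.48 and 4.57 in liver cancer. Both other groups lay below every adult array. Its differences from adult liver were -2.32 ± 0.28 for fetal liver and -1.77 ± 0.28 for liver cancer (also called within the first scan). ASMM10UP787 stood at 3.13, 2.77 and 3.35 in adult liver, 0.75, 0.95 and 0.76 in fetal liver and 1.62, 1.01 and 1.38 in liver cancer. Its differences were -2.27 ± 0.23 and -1.74 ± 0.23 (-1.46 within the first scan).

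The second comparison asked which UP signals separate the tumour from adult tissue, and it used the same adult arrays. Here 56 of 256 UP probes passed (21.9%), with 25 above and 31 below adult liver. Over all tested probes 24% were called, 11.6% higher and 12.4% lower, against 9.77% and 12.1% of the UP probes. Groups did not overlap on 94 UP probes (36.7%), beside 42.6% of all tested probes. At least 4-fold changes were seen for 4 higher and 11 lower UP probes, together 5.86%, beside 7.48%. Median differences were -0.04 for the UP probes and 0.01 for all tested probes.

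Fewer probes were called higher without the second scan. On first-scan arrays, with 1 liver cancer array, the median difference was -0.10 over the UP probes and 0.09 over all tested probes. Of the 25 called higher over all arrays 5 were called higher there (20%, against 52.1% of all probes called higher), and of the 31 called lower 23 were called lower there (74.2%, against 59.4%). With scan as a block 38 were called (14.8%, beside 18.3% of all tested probes), 8 higher and 30 lower. Without liver cancer replicate 1 the count was 103 (40.2%, beside 35.4%), of which 54 were higher. When each array was centred on its median instead, the split was 13 higher and 43 lower (21.9% called, beside 24.6% of all tested probes). That scaling moved the median difference of all tested probes to -0.27 and that of the UP probes to -0.32.

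The arrays of the group differed most on dim probes. Among the 93 UP probes above background on 3 to 5 arrays, the median difference from the adult mean was -0.15 log2 on liver cancer replicate 1 and 0.46 and 0.51 on replicates 2 and 3. On replicate 1, 40.9% of these probes lay above the adult mean, against 64.5% and 66.7% on the others. Among the UP probes above background on all 9 arrays the order turned: the medians were 0.04 on replicate 1 and -0.26 and -0.25 on replicates 2 and 3. The other ASMM10 probes gave -0.02, 0.55 and 0.63 for the dim class and 0.12, -0.27 and -0.24 for the bright class. The pattern was thus present in both classes of probe, which went through the same filter. Detection on these same arrays defined the dim class. Of the 50 UP probes on exactly 3 arrays, 39 had both second-scan arrays among them. The higher medians of the dim class on replicates 2 and 3 are thus partly set by that choice, and no conclusion is drawn from them.

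ASMM10UP144 was called higher, at -2.98, -0.92 and -0.88 in liver cancer and -4.24, -3.84 and -4.51 in adult liver, where it was never above background. Only the 2 second-scan arrays were well above background in liver cancer. Its difference had a limma adjusted p = 0.0144, and its liver cancer mean lay 1.54-fold above the adult floor. This is no strict bound, since that mean includes replicate 1, which was below background. The first-scan difference was 1.22 and gave no call, nor did that with scan as a block, with normexp (0.17) or with signals raised to the floor (0.80), and removing liver cancer replicate 2 or 3 ended the call as well, at 2.27 and 2.25.

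ASMM10UP049 was called higher too, also on first-scan arrays with 1 liver cancer array. It stood at -0.63, 0.36 and 0.53 in liver cancer, -2.33, -1.77 and -2.68 in adult liver and -4.44, -3.89 and -3.64 in fetal liver. All liver cancer arrays lay above all others and were well above background, as was adult replicate 2. The difference from adult liver was 2.34 ± 0.37 (limma adjusted p = 0.00169), and 1.63 within the first scan. Against fetal liver ASMM10UP049 was at least 7.61-fold higher (limma adjusted p = 1.94e-05). With normexp the differences were 0.90, without a call, and 1.09, with one.

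The same held for ASMM10UP330. It stood at -0.96, -1.09 and -1.02 in liver cancer, -1.84, -1.90 and -1.74 in fetal liver and -4.18, -2.54 and -2.69 in adult liver. It was above background on every fetal and liver cancer array and on no adult array. Its liver cancer level was at least 2.28-fold above adult liver (limma adjusted p = 0.0034), and the first-scan difference of 2.18 was called too. Its excess in fetal liver was at least 1.31-fold (limma adjusted p = 0.0196). The latter call was lost when signals were raised to the floor (0.39) and without fetal replicate 1 or 3 or adult replicate 1. With normexp neither was called, at 0.06 and 0.18.

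ASMM10UP886 and its neighbour in number ASMM10UP885 were above background on all 3 liver cancer arrays and on no adult array. ASMM10UP886 lay at -1.81, -0.67 and -0.75 in liver cancer and was at least 2.20-fold higher than in adult liver (limma adjusted p = 0.0102), at 1.54 within the first scan without a call. ASMM10UP885 lay at -1.17, -1.51 and -1.56 and was at least 1.74-fold higher (limma adjusted p = 0.00744), at 2.04 within the first scan without a call. With normexp they were at 0.27 and -0.14, also without a call, and ASMM10UP885 was not called with signals raised to the floor (0.80). Between fetal and adult liver ASMM10UP885 passed the limma threshold as well, but no fold is given, since both groups were below background on every array.

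Both ASMM10UP638 and ASMM10UP096 shared with ASMM10UP885 the pattern of 3 liver cancer arrays above background and none of the other 6. No further UP probe had it (3 in all, 0.33%, against 0.82% of the other ASMM10 probes), and no UP probe had the corresponding adult pattern. These 3 probes passed the filter only through the liver cancer arrays, which set the direction of their differences from the other groups. Their p-values and bounds are therefore no independent support for that direction. ASMM10UP638 lay at -1.90, -1.47 and -2.82 and ASMM10UP096 at -2.10, -2.81 and -2.45 in liver cancer. Neither was called against adult liver over all arrays, but ASMM10UP638 was without liver cancer replicate 3 (1.03) and ASMM10UP096 without adult replicate 2 (1.41). Against fetal liver they were at least 1.72-fold and at least 1.31-fold higher (limma adjusted p = 0.0147 and 0.0158), called at 1.39 and 1.71 on first-scan arrays, while the fit with scan as a block did not call ASMM10UP638. Both calls were lost with quantile normalization (0.99 and 1.07) and when signals were raised to the floor (0.78 and 0.39). That of ASMM10UP638 was also lost with array-median scaling (1.00) and without liver cancer replicate 2, at 0.93. The call of ASMM10UP096 was also lost without fetal replicate 1 or 2, at 1.28 each.

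Of the brighter probes, ASMM10UP731, ASMM10UP648 and ASMM10UP574 were called higher in liver cancer than in adult liver by 1.73 ± 0.51, 1.49 ± 0.44 and 1.32 ± 0.35. ASMM10UP731 stood at 1.12, 3.17 and 3.11 in liver cancer and at 0.67, 0.83 and 0.70 in adult liver. ASMM10UP648 stood at -0.32, 1.22 and 1.30 against -1.32, -0.26 and -0.71. ASMM10UP574 stood at 0.30, 1.54 and 1.82 against -0.16, -0.16 and 0.01. In each case replicate 1 lay close to the adult arrays and replicates 2 and 3 above them. First-scan differences were 0.39, 0.44 and 0.40, without a call, and with scan as a block none was called. All 3 calls were also lost without liver cancer replicate 2 (1.38, 1.25 and 1.16) or replicate 3 (1.41, 1.21 and 1.03), and on leaving out at least 2 of the adult arrays singly. ASMM10UP574 was also higher in fetal liver, at 1.62, 1.75 and 1.75 (1.81 ± 0.35 against adult liver, and 1.02 with normexp, without a call). Over all arrays ASMM10UP731 and ASMM10UP648 were also called higher in liver cancer than in fetal liver. Over the alternative runs these differences ran from 1.58 to 3.59 and from 1.44 to 3.37.

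Among the probes called lower in liver cancer was ASMM10UP253. It stood at -0.45, -0.42 and -0.13 in fetal liver, -1.77, -1.44 and -1.07 in adult liver and -4.43, -5.99 and -5.78 in liver cancer. It was above background on all 6 arrays without tumour and on no liver cancer array. It was at least 4.37-fold lower than in adult liver (limma adjusted p = 0.000118) and at least 9.33-fold lower than in fetal liver (limma adjusted p = 7.06e-06). First-scan differences as measured were -3.00 and -4.09, both called. Its excess in fetal over adult liver, 1.09 ± 0.39, was only just past the threshold (limma adjusted p = 0.0455) and did not survive the removal of any single fetal or adult array.

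ASMM10UP740 was also above background on all adult and no liver cancer arrays, the only other UP probe with that pattern. It stood at -0.34, -1.29 and -0.67 in adult liver, -3.63, -2.69 and -2.95 in fetal liver and -2.66, -5.84 and -5.24 in liver cancer. Its level in liver cancer was at least 6.90-fold lower (limma adjusted p = 0.00405), and the first-scan difference of -1.89 was called. Fetal liver was lower than adult liver by a log2 difference of -2.32 ± 0.72, and this call was lost without fetal replicate 1 or 3 or adult replicate 1 or 3. ASMM10UP087 and ASMM10UP755, given above, had the largest falls among called UP probes above background on all 6 liver cancer and adult arrays.

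The third comparison set the tumour directly against the embryonic organ, with the same liver cancer and fetal arrays. Here 105 of 256 UP probes passed (41.0%), with 42 above and 63 below fetal liver. Over all tested probes 42.4% were called, 20.4% higher and 22% lower, against 16.4% and 24.6% of the UP probes. Groups did not overlap on 139 UP probes (54.3%), beside 58.3% of all tested probes. Changes of 4-fold or more were measured for 16 higher and 37 lower UP probes, together 20.7%, beside 20.7% of all tested probes. First-scan arrays gave 95 calls, 32 higher and 63 lower. This was 37.3%, beside 38.7% of all tested probes. Of the 42 called higher 26 kept that call there (61.9%, against 71.2% of all probes called higher), and of the 63 called lower 53 did (84.1%, against 77.6%). With scan as a block 91 were called (35.5%, beside 38.5%).

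ASMM10UP100 was called higher than in fetal liver (4.29 ± 0.72, limma adjusted p = 0.000931), whose liver cancer levels varied as given above. It was called on first-scan arrays at 3.11, and with normexp it was not called at 1.31. ASMM10UP073 lay at -1.20, -0.14 and -0.09 in liver cancer and at -3.01, -5.24 and -4.60 in fetal liver, below background on every fetal array. Its liver cancer level was at least 5.15-fold above fetal liver (limma adjusted p = 0.000292). The adult excess over fetal liver was at least 2.30-fold, and there it stood at -1.44, -1.80 and -1.68. With normexp both differences lost their call, at 0.72 and -0.36. ASMM10UP885 was at least 2.69-fold higher than in fetal liver (limma adjusted p = 4.55e-05). On first-scan arrays ASMM10UP073 and ASMM10UP885 were called at 3.08 and 3.89.

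Among bright probes ASMM10UP026 was higher in liver cancer than in fetal liver, at 2.44, 2.36 and 2.36 there, 1.46, 1.51 and 1.44 in adult liver and 0.77, 0.75 and 0.80 in fetal liver. Groups were apart in every pair. Liver cancer exceeded fetal liver 3.05-fold (1.61 ± 0.16, limma adjusted p = 3.47e-05), and 1.66 log2 within the first scan. The differences from adult liver lay under the 2-fold minimum in both comparisons. Falls below fetal liver were largest, among called UP probes above background on all 6 arrays, for ASMM10UP087, ASMM10UP848 and ASMM10UP847, at -6.10, -5.34 and -5.18. These 3 were called on first-scan arrays, at -6.10, -4.86 and -4.83.

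Some bright UP probes differed little between groups. ASMM10UP395 stood at 2.04, 1.65 and 2.14 in fetal liver, 2.15, 1.71 and 1.62 in adult liver and 2.10, 1.45 and 1.94 in liver cancer. Its group means spanned 0.12 log2, the smallest range of the 116 tested probes above background on all 9 arrays. ASMM10UP208 and ASMM10UP397 followed with ranges of 0.15 and 0.17, and all 3 groups overlapped for each of the 3 probes. Arrays of a group differed by more than that, with SDs of 0.12 to 0.45 (n = 3 arrays per group), so smaller differences between groups were not resolved. The 3-group test had limma adjusted p-values of 0.888, 0.846 and 0.749, which do not show that the groups are equal.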

How the data were processed

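Per the labels and per the file headers, the authors scanned 1-colour Cy3 arrays and the deposited intensity values came from Agilent Feature Extraction 11.0.1.1 and are background-subtracted within each array. Flags of other kinds (well above background, outlier, saturated) were deposited as 0 or 1. Outlier spots were left out. Log2 processed signals of a probe were averaged, and the 75th percentile of each array over 60915 non-control probes was subtracted.

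All probes well above background on at least 3 of 9 arrays, with at least 2 usable arrays per group, were fitted with limma 3.58.1 (R 4.3.3) over the 9 arrays. Benjamini-Hochberg adjustment covered all 34114 fitted probes, and a call needed an adjusted value below 0.05 and at least a 2-fold change. The procedure was run on simulated data with known changes. The simulated noise was independent between arrays, without a scan effect or a background floor, so the run does not address either.

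Named probes were the 4 highest and 4 lowest called, non-overlapping UP probes of each comparison, up to 3 per group above background in that group alone, and the 3 with the smallest range of means. A further 12 were named after their values were seen. The members, lists and tests were chosen with earlier results of these data known. Alternatives were other scalings, filters, a signal floor, normexp (offset 50, on median signals, since no mean signal is in the files), scan, replicate number, variance model, 2-group fits and leaving out each array. Same-numbered arrays did not deviate together in every pair, so no pairing was assumed.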

Additional observations from a re-analysis of the deposited data

How the results depend on the processing

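Signal limits these results: dim probes and 3 arrays per group leave small differences unresolved. Over all arrays 87, 56 and 105 UP probes were called for fetal against adult liver, liver cancer against adult liver and liver cancer against fetal liver, and 128 differed among the 3 groups. Restricting the fit to probes above background on all 9 arrays gave 38, 27, 42 and 56, with 116 UP probes tested. These are 32.8%, 23.3%, 36.2% and 48.3%, beside 36.4%, 22.9%, 39.6% and 52.8% of all tested probes. Under normexp 27 were called between fetal and adult liver, and within the first scan 37 between liver cancer and adult liver. Why normexp called fewer was not tested. Leaving out 1 array gave 75 to 92, 40 to 103, 95 to 130 and 114 to 161 calls, with the highest value in each case without liver cancer replicate 1. Without that array the shares were 35.9%, 40.2%, 50.8% and 62.9%, beside 41.0%, 35.4%, 48.1% and 63.0% of all tested probes. Every count of the fit restricted to probes above background on all 9 arrays thus differed by more than 1.5 times. So did that of normexp for fetal against adult liver. For liver cancer against adult liver, so did those of the first scan alone and without liver cancer replicate 1. All other counts stayed within 1.5 times. Quantile normalization turned the split of liver cancer against adult liver to 19 higher and 36 lower, and normexp to 11 and 36, against 25 and 31. With these settings 21.5% and 18.4% of the UP probes were called, beside 24.2% and 17.6% of all tested probes. Normexp gave 19 higher and 57 lower for liver cancer against fetal liver, where 42 and 63 were called. It called 29.7% of the UP probes there, beside 30.1% of all tested probes. It moved the median difference of all tested probes to -0.27 for liver cancer against adult liver and -0.26 against fetal liver. The median of the UP probes was -0.43 in both comparisons.

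Fits on 2 groups at a time gave 95, 45 and 101 calls for the 3 comparisons. These are 37.1%, 17.5% and 39.3%, beside 41.0%, 19.7% and 41.0% of all tested probes. With the replicate block the counts were 87, 55, 104 and 130. Their shares were 34.0%, 21.5%, 40.6% and 50.8%, beside 39.8%, 24.7%, 43.0% and 55.3% of all tested probes. Same-numbered arrays did not deviate together in every comparison, so the numbers only name the samples. In all, 49 of the 78 called differences of named probes kept their call in every alternative run. Normexp ended 26 of them, raising signals to the floor 10, and the first scan alone 9, as did scan as a block. Of 36 uncalled differences of named probes, 7 were called without liver cancer replicate 1, and at most 1 without any other single array. With normexp the sign turned for ASMM10UP265 (-0.35), ASMM10UP638 (-0.38) and ASMM10UP096 (-0.56) in liver cancer against fetal liver and for ASMM10UP885 (-0.14) against adult liver. None of these 4 was called there.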
